A study of Mus musculus with 28 samples.

Results

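The genes described here are 8 cadherins: Cdh1, Cdh2, Cdh3, Cdh4, Cdh6, Cdh10, Cdh11 and Cdh13. They were taken by symbol from a table of read counts that lists 54429 gene identifiers, in a choice made with earlier results of these data known, and were followed through all 8 groups of cultures of O9-1 cells. O9-1 is an established mouse line of cranial neural crest origin. In the embryo that population builds much of the face and palate. All cultures came from that one line, and nothing in the labels says whether replicate libraries were grown as separate cultures, so the p-values below measure the spread between libraries, which may be technical. Polyadenylated RNA was sequenced from 4 libraries per group at 21% O2 (normoxic) and 3 libraries per group at 0.5% O2 (hypoxic), 28 libraries in all.

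At each oxygen level the cells were kept in 1 of 4 ways. Proliferating cells grew in STO-conditioned DMEM with 15% fetal calf serum (FCS), non-essential amino acids, beta-mercaptoethanol, bFGF at 25 ng/ml and LIF at 5 ng/ml. Osteoblast cultures received alpha-MEM with 10% FCS, beta-glycerophosphate at 10 mM, dexamethasone at 0.1 µM and BMP-2 at 100 ng/ml for 10 days. Chondrocyte cultures spent 3 days in that osteoblast medium and then 7 days as micromasses on matrigel in alpha-MEM with 5% FCS, insulin-transferrin-selenium, dexamethasone at 0.1 µM, TGF-beta3 at 10 ng/ml and BMP-2 at 50 ng/ml. Smooth muscle cultures spent 3 days in DMEM with 10% FCS. Penicillin and streptomycin were in every medium. The proliferating controls are the only cultures with bFGF and LIF, so each comparison with them includes the loss of both factors, another serum level or basal medium and another culture time. These cannot be told apart from the lineage itself.

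Classical cadherins are single-pass membrane proteins whose extracellular repeats bind calcium and join like cadherins on neighbouring cells, while their cytoplasmic tails bind beta-catenin and p120-catenin and so reach the actin cytoskeleton. Type I members include Cdh1 (E-cadherin, typical of epithelia), Cdh2 (N-cadherin, typical of mesenchyme and neural tissue), Cdh3 (P-cadherin) and Cdh4 (R-cadherin). Type II members include Cdh6, Cdh10 and Cdh11, the last also known as OB-cadherin from osteoblasts. Cdh13 (T-cadherin) does not meet the label in full, because it has cadherin repeats but is held in the membrane by a lipid anchor and lacks the catenin-binding tail. Exchange of one cadherin for another is a known feature of neural crest cells as they leave the neural tube, migrate and settle.

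In the mm10 build the genes lie on 4 chromosomes, all annotated as protein coding. Cdh3 (chr8:106510891-106557297) and Cdh1 (chr8:106603351-106670246) are neighbours on the plus strand of chromosome 8. Cdh11 (chr8:102632095-102785642, minus strand) and Cdh13 (chr8:118283733-119324921, plus strand) lie farther away on the same chromosome. Cdh6 (chr15:13028701-13173675, minus strand) and Cdh10 (chr15:18818947-19014236, plus strand) share chromosome 15. Cdh4 is at chr2:179442431-179899373 on the plus strand. Cdh2 is placed where it is described.

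Cdh6 and Cdh10 are shown with the bases before their start sites because, of the 8 members, a promoter sequence was given for these 2. Both were high in chondrocyte cultures. Each sequence holds 250 bases before the RefSeq start, 5′ to 3′ on the strand of the gene, in GRCm38.p6 coordinates (mm10), and the capitals mark every match to the motifs searched.
Cdh6, chr15:13173676-13173925, minus strand: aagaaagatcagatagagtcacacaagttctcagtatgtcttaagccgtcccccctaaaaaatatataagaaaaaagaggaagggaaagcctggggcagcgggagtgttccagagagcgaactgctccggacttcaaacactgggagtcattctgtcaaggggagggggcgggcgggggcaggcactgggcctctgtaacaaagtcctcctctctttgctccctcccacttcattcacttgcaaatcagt
Cdh10, chr15:18820079-18820328, plus strand: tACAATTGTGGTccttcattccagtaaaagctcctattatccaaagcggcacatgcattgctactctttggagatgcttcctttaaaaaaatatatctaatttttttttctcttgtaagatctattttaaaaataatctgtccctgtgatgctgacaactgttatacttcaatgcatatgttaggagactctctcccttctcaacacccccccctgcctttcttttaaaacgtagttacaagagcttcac
The motifs, searched on both strands, were the E-box CAGGTG bound by Snail-type repressors, the hypoxia response element core ACGTG or GCGTG, the SOX core ACAAT and the RUNX core TGTGGT. The Cdh6 sequence had 0 matches to any of them. The Cdh10 sequence had 2 SOX matches, at -249 and -246 from the start, and 1 RUNX match at -244, and these overlap one another at the far end of the window. Over the 250 bases before the start of all 32851 RefSeq promoters, the E-box was found in 17.2%, the hypoxia core in 38.6%, the SOX core in 27.7% and the RUNX core in 14%. The G and C content was 51.2% for Cdh6 and 36.8% for Cdh10, against a median of 52.4% over all promoters. For Cdh10 the RefSeq start lies within the gene as GENCODE draws it, so other starts of that gene are not covered. The tables used here hold promoters for 2 of the 8 members, and Cdh1, Cdh2, Cdh3, Cdh4, Cdh11 and Cdh13 are not shown.

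Library totals lay between 19869271 and 64693346 counts. Levels below are in CPM, the usual unit of counts scaled to a common library depth, after TMM scaling, which sets library sizes so that most genes stay level. A gene was called changed where its Benjamini-Hochberg adjusted p in the edgeR quasi-likelihood test was under 0.05 over all genes tested. The 3 hypoxic smooth muscle libraries stood apart: mitochondrial ribosomal RNA took 11.6% to 13.3% of their counts, against at most 0.0889% elsewhere, and their TMM factors were 0.505 to 0.533, against 0.901 to 1.29 in the other 25. With scaling by library size alone, the median log2 change of all genes moves to -1.35 against hypoxic proliferating and to -1.49 against normoxic smooth muscle, so levels and changes of this group are after TMM scaling unless library size alone is named. Replicate 4 stood apart in several normoxic groups. The mean chi-square per gene between libraries of a group, which is near 1 for counting noise alone, was 91.1 to 97.04 for pairs with normoxic osteoblast replicate 4 and 2.89 to 3.88 for the other pairs. It was 18.3 to 22.3 with replicate 4 against 5.18 to 5.83 in normoxic proliferating cells, and 14 to 20.2 against 6.10 to 7.94 in normoxic smooth muscle cultures. In normoxic chondrocyte cultures pairs with replicate 1 or 4 gave 27.8 to 36.5, against 8.58 between replicates 2 and 3. Among hypoxic groups, pairs with chondrocyte replicate 1 gave 28.1 and 31.6 against 9.93 for the other pair, and the remaining hypoxic pairs gave 4.11 to 29.3. Leaving out hypoxic chondrocyte replicate 1 changed no call of a member. With the normoxic libraries numbered 4 left out, an alternative chosen after seeing the data, no count of members called changed in the 10 comparisons that use them. In marker genes normoxic osteoblast replicate 4 had Col2a1 at 775 CPM against 35.6 to 43.6 in the other 3 and Sp7 at 45.4 against 0.670 to 1.36. Lineage markers were not particular to their label. Of 8 chondrocyte genes, 7 of 7 tested were called higher in normoxic and 5 of 6 in hypoxic chondrocyte cultures, but so were 6 of 7 in normoxic and 7 of 7 in hypoxic osteoblast cultures. Of 8 osteoblast genes, 4 were called higher and 2 lower of 7 in normoxic osteoblast cultures and 7 of 7 higher in hypoxic ones, beside 7 of 8 in normoxic chondrocyte and 6 of 7 (and 1 lower) in hypoxic chondrocyte cultures. All 6 smooth muscle genes tested were higher in normoxic smooth muscle cultures, as were 7 of 7 in normoxic osteoblast cultures. Of all genes, 34.9% to 40.9% were called higher in these comparisons. Many markers passed the filter on low counts only through the culture in which they are high, which fixes their direction. Under normoxia these were 4 of 7 chondrocyte genes in chondrocyte and in osteoblast cultures. They were 4 of 8 osteoblast genes in chondrocyte and 3 of 7 in osteoblast cultures. Of smooth muscle genes they were 3 of 6 in smooth muscle and 4 of 7 in osteoblast cultures. Of all genes, 14.5% to 15.6% passed through 1 group only. Bglap and Ibsp, defining osteoblast genes, averaged 0.121 and 1.13 CPM in normoxic osteoblast cultures, and Ibsp averaged 1173 CPM in normoxic chondrocyte cultures. The markers went against the hypoxic smooth muscle label, where Acta2 was at 13.9 to 30.01 CPM, overlapping the 25.0 to 32.0 CPM of hypoxic proliferating cells, and the summed smooth muscle list was at 95.0 to 119 CPM against 3579 to 4043 in normoxic smooth muscle cultures. What these departures contribute to the cadherin results was not tested. In bulk RNA, fewer cells expressing a gene and less RNA per cell cannot be told apart.

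Between genes, levels are compared only per length, as CPM per kilobase of exon. On that scale the proliferating cells were dominated by Cdh2. Cdh2 made up 73.6% ± 1.85 (SD, n = 4) of the summed level of the 8 genes in normoxic and 71.6% ± 0.231 (SD, n = 3) in hypoxic proliferating cells. Cdh13 followed with 18.5% ± 0.975 and 23.0% ± 0.405, and Cdh11 gave 5.12% ± 1.02 and 3.02% ± 0.384. In every normoxic differentiated group Cdh11 had the largest share. It was 51.3% ± 3.70 in chondrocyte, 48.1% ± 2.51 in osteoblast and 59.7% ± 1.11 in smooth muscle cultures (SD, n = 4 each). Cdh2 stood at 40.3% ± 3.03, 41.2% ± 1.53 and 21.3% ± 0.636 in the same groups.

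The hypoxic cultures were composed differently. Cdh2 remained the largest in chondrocyte cultures, at 52.3% ± 1.07 beside 34.6% ± 1.07 for Cdh11 (SD, n = 3). In hypoxic osteoblast cultures Cdh2 gave 44.1% ± 1.80, Cdh13 27.9% ± 1.74 and Cdh11 26.5% ± 3.35. In hypoxic smooth muscle cultures Cdh13, the member without a catenin-binding tail, gave 70.0% ± 1.78, Cdh2 23.8% ± 2.25 and Cdh11 4.54% ± 1.18. These shares do not depend on library scaling, since they are formed within a library.

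**Figure D1:**
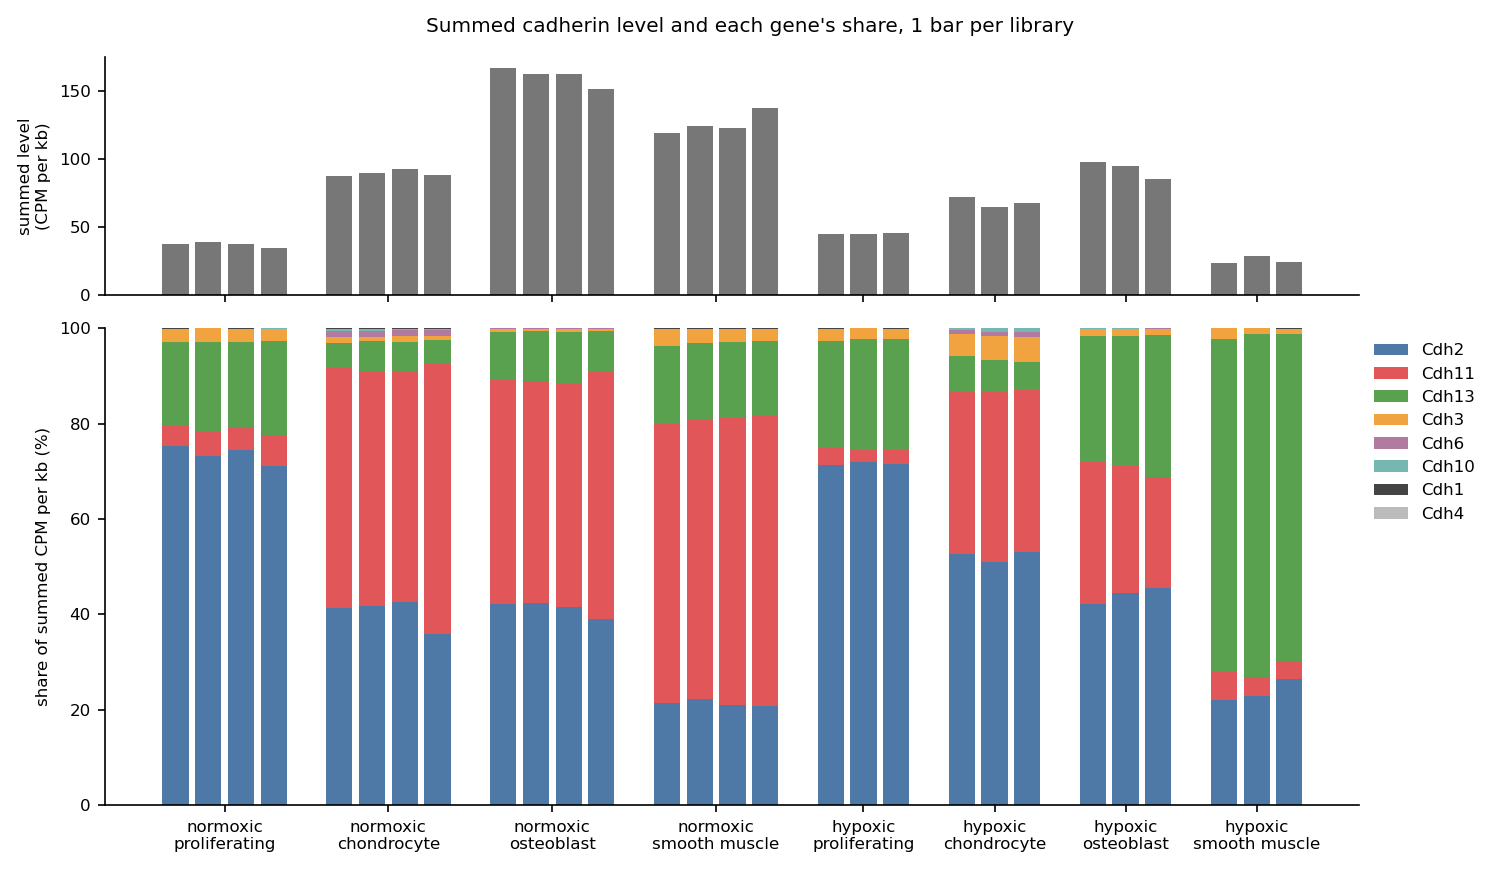
Summed level of the 8 cadherins in CPM per kilobase of exon (upper panel) and the percentage of that sum from each gene (lower panel), with 1 bar per library and the 8 groups side by side. Cdh2 fills about 71% to 75% of the bar in proliferating cells, Cdh11 takes 46.6% or more in every normoxic differentiated library, and Cdh13 takes 68.5% to 72.0% in hypoxic smooth muscle cultures.

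The sum of the 8 genes also varied between groups. It was 37.4 ± 1.94 CPM per kilobase in normoxic proliferating cells and 161 ± 6.44 in normoxic osteoblast cultures (SD, n = 4). Normoxic smooth muscle cultures reached 126 ± 7.79 and normoxic chondrocyte cultures 89.7 ± 2.14. Under hypoxia the sum was 45.4 ± 0.522 in proliferating, 68.3 ± 3.45 in chondrocyte, 92.8 ± 6.65 in osteoblast and 25.7 ± 2.83 in smooth muscle cultures (SD, n = 3). The last value becomes 13.3 ± 1.13 with library size alone, against 52.5 ± 0.645 in hypoxic proliferating cells and 162 ± 9.81 in normoxic smooth muscle cultures. On both scales the libraries of every normoxic differentiated group lay above those of its hypoxic counterpart.

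The ratio of Cdh11 to Cdh2 per length was computed after the levels had been seen and is given as a description. It was 0.0544 to 0.0918 in normoxic and 0.0374 to 0.0482 in hypoxic proliferating libraries. It was 1.14 to 1.58 in normoxic chondrocyte, 1.10 to 1.33 in normoxic osteoblast and 2.64 to 2.93 in normoxic smooth muscle libraries. Under hypoxia it was 0.640 to 0.701 in chondrocyte, 0.507 to 0.709 in osteoblast and 0.147 to 0.267 in smooth muscle libraries. Cdh11 thus exceeded Cdh2 in all 12 normoxic differentiated libraries and in 0 of the 9 hypoxic ones.

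Cdh11, a type II cadherin known from osteoblasts and mesenchyme, gave the largest differences among the abundant members. Its level in the 4 normoxic proliferating libraries was 13.8, 17.4, 16.3 and 20.1 CPM. In normoxic chondrocyte cultures it was 393, 395, 400.5 and 447 CPM. In normoxic osteoblast cultures it was 698, 676, 681 and 701 CPM. Every differentiated normoxic library was thus many times above every proliferating one. In normoxic smooth muscle cultures it was 626, 651, 661 and 746 CPM, overlapping the osteoblast range.

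Relative to normoxic proliferating cells Cdh11 rose 25.5-fold in chondrocyte cultures (log2 change 4.67 ± 0.11 SE, edgeR adjusted p = 1.348e-11). It rose 42.3-fold in osteoblast (5.40 ± 0.12 SE, edgeR adjusted p = 7.907e-10) and 41.2-fold in smooth muscle cultures (5.37 ± 0.11 SE, edgeR adjusted p = 2.151e-14). Over all of the members, 5 of the 6 tested were called in normoxic chondrocyte cultures, where 74.9% of all tested genes were called. Of these 4 were higher (37.7% of all genes) and 1 lower (37.2%). In normoxic osteoblast cultures 4 of 5 were called, against 78.7% of all genes, with 4 higher (40.9%) and 0 lower (37.8%). In normoxic smooth muscle cultures 4 of 5 were called, against 79.7% of all genes, with 4 higher (40.8%) and 0 lower (38.9%). The totals called lie near the background totals, and called members were more often higher than lower. Part of that is fixed by the filter on low counts: Cdh6 and Cdh10 in chondrocyte and Cdh6 in osteoblast cultures, at both oxygen levels, and Cdh1 in normoxic smooth muscle cultures passed it only through the group in which they are high. Of Cdh2, Cdh3, Cdh11 and Cdh13, tested in every comparison, 2 were higher and 1 lower in normoxic chondrocyte cultures, and 3 were higher and 0 lower in normoxic osteoblast and in normoxic smooth muscle cultures. With library size alone the chondrocyte split becomes 3 higher and 2 lower, since Cdh2 loses its call (log2 change 0.12, edgeR adjusted p = 0.138) and Cdh3 gains one (-0.44, edgeR adjusted p = 0.0344).

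**Figure D2:**
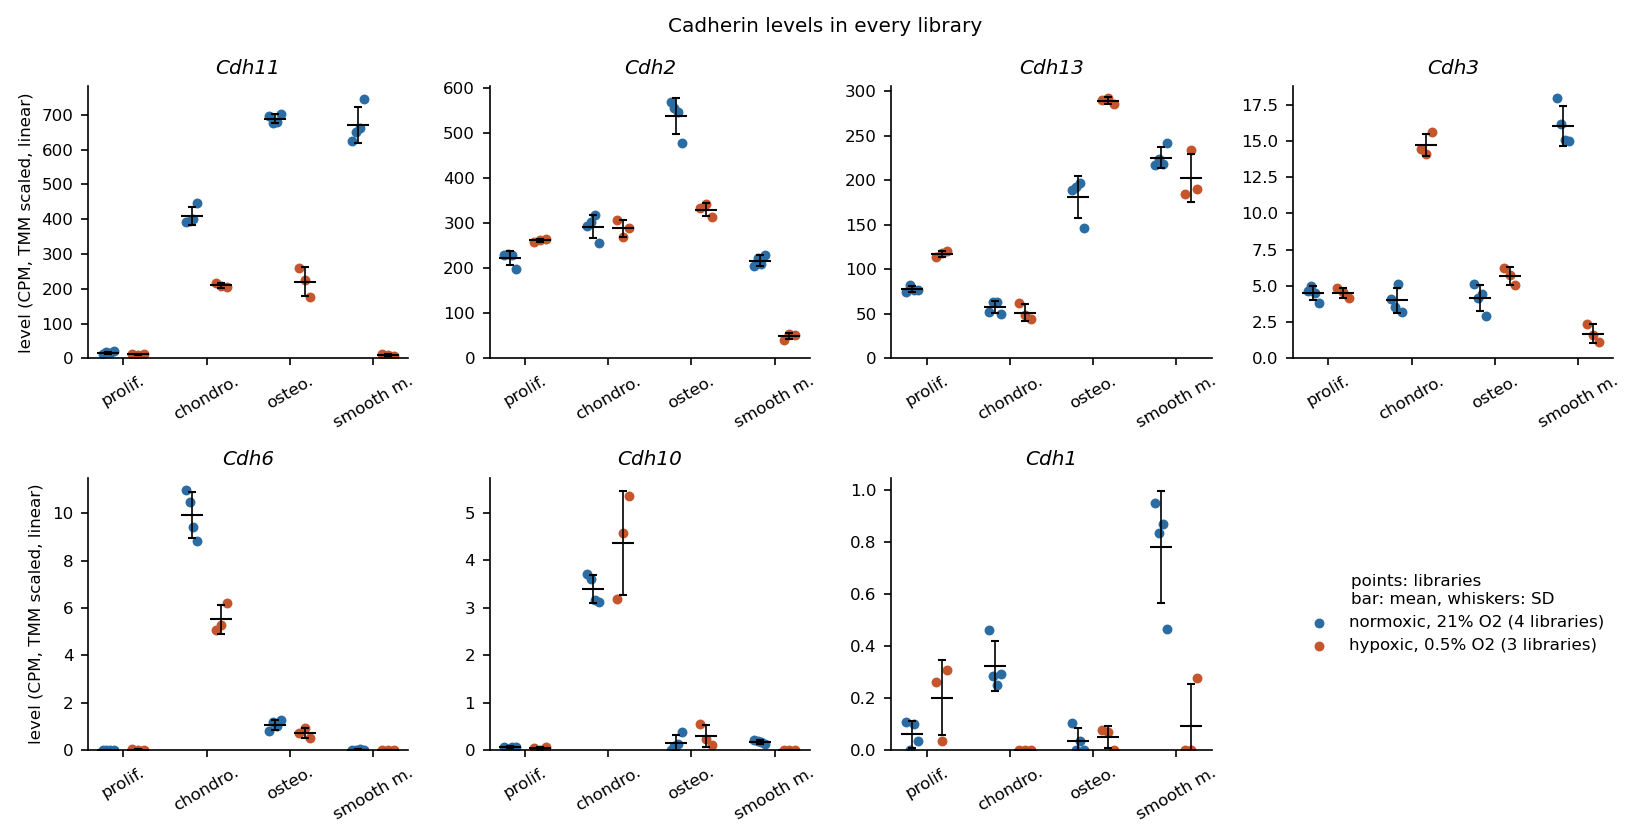
Level of 7 cadherins in CPM (linear axes that start at 0) in every library, by culture state, with normoxic libraries in blue and hypoxic ones in orange, the mean as a bar and the SD as whiskers. Cdh11 is at most 20.1 CPM in all proliferating libraries and at least 393 CPM in every normoxic differentiated one, whereas the hypoxic smooth muscle libraries stay at 8.52 to 12.4 CPM. Cdh4 is left out because it had 2 counts in all.

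Under hypoxia Cdh11 began from 13.8, 10.9 and 11.98 CPM in proliferating cells. It was 217, 208 and 205 CPM in chondrocyte cultures and 260.1, 226 and 176 CPM in osteoblast cultures. In smooth muscle cultures it was 12.4, 9.87 and 8.52 CPM. The first pair of lineages lay far above proliferating cells, whereas the smooth muscle libraries overlapped them.

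In hypoxic chondrocyte cultures Cdh11 rose 17.1-fold (log2 change 4.10 ± 0.08 SE, edgeR adjusted p = 3.028e-13) and in hypoxic osteoblast cultures 18.0-fold (4.17 ± 0.14 SE, edgeR adjusted p = 1.538e-11). In hypoxic smooth muscle cultures its log2 change was -0.12 ± 0.19 SE (edgeR adjusted p = 0.576), which does not show that the levels were equal. With library size alone that value becomes -1.40 (edgeR adjusted p = 3.326e-05), beside an all-gene median of -1.35. Over all of the members, 5 of 6 were called in hypoxic chondrocyte cultures against 69.5% of all tested genes, with 4 higher (34.9%) and 1 lower (34.6%). In hypoxic osteoblast cultures 4 of 5 were called, against 71.3% of all genes, with 4 higher (36.2%) and 0 lower (35.1%). Hypoxic smooth muscle cultures had 3 of 4 called, against 70% of all genes, with 1 higher (33.8%) and 2 lower (36.2%), and with library size alone 4 of 4, all lower.

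Direct comparison of the oxygen levels gave lower Cdh11 in all 4 states. In hypoxic proliferating cells it was 1.33-fold lower (log2 change -0.41 ± 0.13 SE, edgeR adjusted p = 0.0111), with normoxic replicate 1 at the level of the highest hypoxic library. Without hypoxic proliferating replicate 2 that call was lost (-0.34, edgeR adjusted p = 0.0631). In chondrocyte cultures it was 1.96-fold lower (-0.97 ± 0.07 SE, edgeR adjusted p = 3.913e-06) and in osteoblast cultures 3.13-fold lower (-1.64 ± 0.13 SE, edgeR adjusted p = 1.065e-05). In smooth muscle cultures it was 62.2-fold lower (-5.96 ± 0.13 SE, edgeR adjusted p = 1.100e-14, and -7.32 with library size alone). The groups did not overlap in the 3 differentiated states. The hypoxic change from the proliferating state was lower than the normoxic one in each lineage, by 0.54 ± 0.14 SE in chondrocyte (interaction log2 -0.54, edgeR adjusted p = 0.00371), 1.19 ± 0.18 SE in osteoblast (-1.19, edgeR adjusted p = 4.965e-05) and 5.51 ± 0.18 SE in smooth muscle cultures (-5.51, edgeR adjusted p = 2.045e-16).

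The order of groups for Cdh11 ran from normoxic osteoblast and smooth muscle cultures, which overlapped, through normoxic chondrocyte cultures to hypoxic osteoblast and chondrocyte cultures, which overlapped. The normoxic and hypoxic proliferating cells and the hypoxic smooth muscle cultures came last, and the libraries of the last 2 overlapped. Over the 28 libraries the genes whose log2(CPM + 0.5) was most like that of Cdh11 were Acta2, the actin of smooth muscle and contractile fibroblasts (Pearson r = 0.987), and Lgr4, a receptor for R-spondins (r = 0.984). Without the hypoxic smooth muscle libraries r was 0.986 and 0.983 over 25 libraries. Acta2 averaged 41.8 CPM in normoxic proliferating and 3254 CPM in normoxic smooth muscle cultures. All such likenesses are descriptions over libraries that share 8 groups.

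Cdh2, the type I cadherin of neural crest and mesenchyme (chr18:16588877-16809246, minus strand, mm10), was expressed in every library. Relative to proliferating cells it changed far less than Cdh11, except in hypoxic smooth muscle cultures. Its levels in normoxic proliferating cells were 230.0, 231, 229 and 198 CPM. In normoxic chondrocyte cultures they were 293, 302, 318 and 256 CPM. In normoxic osteoblast cultures they were 568, 556, 545 and 478 CPM. The osteoblast libraries were above all other libraries of the series for this gene. In normoxic smooth muscle cultures the levels were 206, 223, 208 and 230.3 CPM, within the range of proliferating cells.

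Cdh2 rose 2.51-fold in normoxic osteoblast cultures (log2 change 1.33 ± 0.07 SE, edgeR adjusted p = 1.386e-07) and 1.39-fold in normoxic chondrocyte cultures (0.47 ± 0.07 SE, edgeR adjusted p = 7.01e-05). The latter call was lost with library size alone, as given above. In normoxic smooth muscle cultures the log2 change was 0.02 ± 0.06 SE (edgeR adjusted p = 0.771). Under hypoxia the proliferating libraries were at 258, 263 and 265 CPM and the chondrocyte libraries at 306, 269 and 290.0 CPM. The hypoxic osteoblast libraries were at 332, 342 and 314 CPM and the smooth muscle libraries at 42.0, 53.5 and 52.5 CPM. The smooth muscle libraries were far below every other library of the series.

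Cdh2 fell 4.90-fold in hypoxic smooth muscle cultures relative to hypoxic proliferating cells (log2 change -2.29 ± 0.10 SE, edgeR adjusted p = 2.510e-09, and -3.57 with library size alone). It rose 1.25-fold in hypoxic osteoblast cultures (0.33 ± 0.06 SE, edgeR adjusted p = 2.912e-04), a call that library size alone removes (0.10, edgeR adjusted p = 0.183). In hypoxic chondrocyte cultures its log2 change was 0.13 ± 0.06 SE (edgeR adjusted p = 0.0803), but it was called higher without hypoxic chondrocyte replicate 2 (0.18, edgeR adjusted p = 0.0221). With library size alone it was called lower there (-0.20, edgeR adjusted p = 0.00934), so its direction in these cultures depends on the scaling. With that scaling the split of members in hypoxic chondrocyte cultures is 4 higher and 2 lower of 6.

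Between oxygen levels Cdh2 was 1.23-fold higher in hypoxic proliferating cells (log2 change 0.30 ± 0.05 SE, edgeR adjusted p = 2.170e-04), with no overlap. It was 1.63-fold lower in hypoxic osteoblast cultures (-0.70 ± 0.09 SE, edgeR adjusted p = 1.858e-04) and 4.22-fold lower in hypoxic smooth muscle cultures (-2.08 ± 0.10 SE, edgeR adjusted p = 7.046e-11, and -3.45 with library size alone), again with no overlap. In chondrocyte cultures the libraries overlapped (-0.03 ± 0.08 SE, edgeR adjusted p = 0.862). The change from the proliferating state was lower under hypoxia in osteoblast (interaction log2 -0.96 ± 0.10 SE, edgeR adjusted p = 1.219e-06) and smooth muscle cultures (-2.33 ± 0.11 SE, edgeR adjusted p = 4.755e-14). It was also lower in chondrocyte cultures (-0.31 ± 0.10 SE, edgeR adjusted p = 0.0210), a call lost without hypoxic chondrocyte replicate 2 (-0.26, edgeR adjusted p = 0.0686) and with all 28 libraries in 1 fit (-0.26, edgeR adjusted p = 0.0901). The genes most like Cdh2 were Ripk1, a kinase of cell death signalling (r = 0.967 over 28 libraries), and Efcab14 (r = 0.963). Without the hypoxic smooth muscle libraries these fell to 0.901 and 0.818, so those 3 libraries carry part of the likeness.

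**Figure D3:**
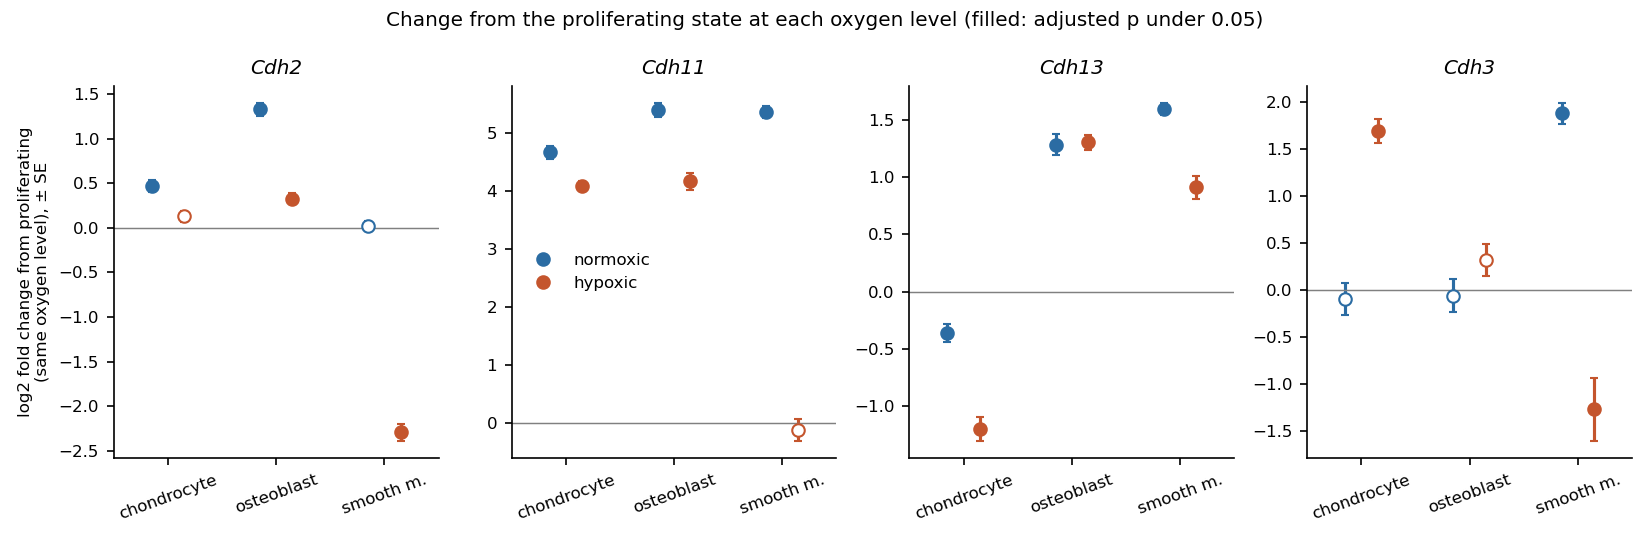
Change from the proliferating state at the same oxygen level for the 4 members tested in every comparison, as log2 fold change with its SE, by lineage, with filled points for adjusted p under 0.05. The vertical axes differ between panels. For Cdh11 the normoxic and hypoxic points lie between 4.10 and 5.40 except in hypoxic smooth muscle cultures, at -0.12, and for Cdh3 the called points are the hypoxic chondrocyte and both smooth muscle ones.

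Cdh13, the lipid-anchored T-cadherin that binds adiponectin and low-density lipoprotein, followed another pattern. In normoxic cultures it was at 74.7, 82.3, 76.4 and 76.7 CPM in proliferating cells and at 52.6, 63.0, 63.7 and 50.5 CPM in chondrocyte cultures. In normoxic osteoblast cultures it was at 189, 192, 197 and 147 CPM and in smooth muscle cultures at 218, 223, 218 and 242 CPM. The chondrocyte libraries lay below proliferating ones, and the other pair of lineages above. The lowest osteoblast value belongs to replicate 4, the library named above as standing apart.

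In normoxic cultures Cdh13 fell 1.28-fold in chondrocyte cultures (log2 change -0.36 ± 0.08 SE, edgeR adjusted p = 0.00107). It rose 2.43-fold in osteoblast (1.28 ± 0.09 SE, edgeR adjusted p = 7.923e-07) and 3.02-fold in smooth muscle cultures (1.59 ± 0.05 SE, edgeR adjusted p = 4.424e-13). Without osteoblast replicate 4 the osteoblast change was 1.33 (edgeR adjusted p = 6.639e-12). Under hypoxia its levels were 114, 118 and 120.2 CPM in proliferating cells and 61.8, 48.3 and 44.3 CPM in chondrocyte cultures. They were 290.5, 293 and 285 CPM in osteoblast and 184, 234 and 190.1 CPM in smooth muscle cultures. No 2 of these hypoxic groups overlapped.

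Cdh13 fell 2.29-fold in hypoxic chondrocyte cultures (log2 change -1.20 ± 0.10 SE, edgeR adjusted p = 1.490e-06) and rose 2.46-fold in hypoxic osteoblast cultures (1.301 ± 0.064 SE, edgeR adjusted p = 6.189e-11). In hypoxic smooth muscle cultures it was called 1.88-fold higher (0.91 ± 0.10 SE, edgeR adjusted p = 6.391e-06), but its direction turned with library size alone (-0.37, edgeR adjusted p = 0.00246), on which scale its mean was 105 CPM against 135 CPM in hypoxic proliferating cells. It was also below 0 when mitochondrial and short noncoding genes were first left out of the library sizes (-0.16, edgeR adjusted p = 0.113). Its high share among the cadherins in those libraries does not depend on scaling, as the shares above show, but the direction of Cdh13 itself does.

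Hypoxia went with higher Cdh13 in proliferating cells (1.57-fold, log2 change 0.65 ± 0.05 SE, edgeR adjusted p = 3.984e-08) and in osteoblast cultures (1.60-fold, 0.67 ± 0.11 SE, edgeR adjusted p = 6.702e-04). In both states the hypoxic libraries were above all normoxic ones. In chondrocyte (-0.16 ± 0.12 SE, edgeR adjusted p = 0.384) and smooth muscle cultures (-0.09 ± 0.09 SE, edgeR adjusted p = 0.378) the libraries overlapped and no change was called. In smooth muscle cultures it was called lower without hypoxic smooth muscle replicate 2 (-0.23, edgeR adjusted p = 0.0164), without the filter on low counts (-0.21, edgeR adjusted p = 0.0367) and with library size alone (-1.46, edgeR adjusted p = 7.968e-10). The hypoxic change from the proliferating state was lower than the normoxic one in chondrocyte (interaction log2 -0.81 ± 0.14 SE, edgeR adjusted p = 1.672e-04) and smooth muscle cultures (-0.70 ± 0.11 SE, edgeR adjusted p = 4.433e-06). In osteoblast cultures the interaction was 0.06 ± 0.12 SE (edgeR adjusted p = 0.675). Tmod1, which caps actin filaments, was most like Cdh13 (r = 0.939 over 28 libraries).

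Cdh3, or P-cadherin, was low in most groups and high in 2 of them. Its normoxic levels were 4.68, 4.98, 4.51 and 3.82 CPM in proliferating cells, 4.07, 3.56, 5.16 and 3.24 CPM in chondrocyte cultures and 5.17, 4.14, 4.44 and 2.95 CPM in osteoblast cultures. In normoxic smooth muscle cultures they were 17.9, 16.2, 15.1 and 15.0 CPM. Only the last group stood clear of proliferating cells among the normoxic groups. Under hypoxia the levels were 4.84, 4.56 and 4.18 CPM in proliferating cells and 14.5, 14.1 and 15.6 CPM in chondrocyte cultures. In hypoxic osteoblast cultures, which did not overlap proliferating cells but were not called different (log2 change 0.32, edgeR adjusted p = 0.0994), they were 6.23, 5.77 and 5.03 CPM and in hypoxic smooth muscle cultures 2.40, 1.596 and 1.11 CPM. The hypoxic chondrocyte range thus overlapped that of normoxic smooth muscle cultures, and the hypoxic smooth muscle libraries were the lowest of the series.

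Cdh3 rose 3.68-fold in normoxic smooth muscle cultures (log2 change 1.88 ± 0.11 SE, edgeR adjusted p = 2.622e-10) and 3.24-fold in hypoxic chondrocyte cultures (1.69 ± 0.13 SE, edgeR adjusted p = 6.896e-08). It fell 2.40-fold in hypoxic smooth muscle cultures (-1.27 ± 0.34 SE, edgeR adjusted p = 0.00545, and -2.54 with library size alone). The oxygen effect had opposite signs in the 2 lineages. Hypoxic chondrocyte cultures had 3.65-fold more Cdh3 than normoxic ones (1.87 ± 0.16 SE, edgeR adjusted p = 1.477e-05), and hypoxic smooth muscle cultures 8.82-fold less (-3.14 ± 0.23 SE, edgeR adjusted p = 9.332e-09, and -4.50 with library size alone). Interaction terms were 1.82 ± 0.22 SE in chondrocyte (edgeR adjusted p = 2.831e-06) and -3.16 ± 0.27 SE in smooth muscle cultures (edgeR adjusted p = 7.605e-10). In the chondrocyte interaction this was the only member called higher.

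Cdh3 was not called in hypoxic against normoxic proliferating cells (log2 change 0.06 ± 0.15 SE, edgeR adjusted p = 0.735). In hypoxic against normoxic osteoblast cultures the log2 change was 0.44 ± 0.20 SE (edgeR adjusted p = 0.0890), and it was called only with all 28 libraries in 1 fit (0.44, edgeR adjusted p = 0.0383). Its neighbour Cdh1 did not share its high level in hypoxic chondrocyte cultures, as given below. The genes most like Cdh3 were Fnbp1l, an organiser of actin at membranes (r = 0.866), and Vtcn1, a B7 family protein (r = 0.848).

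**Figure D4:**
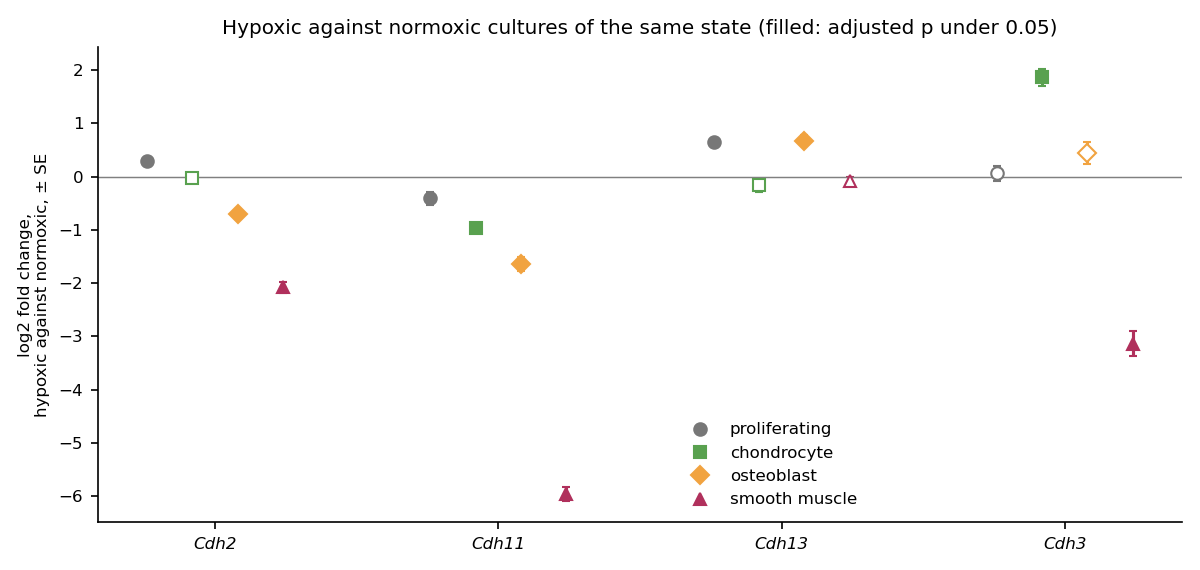
Log2 fold change of hypoxic against normoxic cultures of the same state, with its SE, for the 4 members tested in all states, with filled points for adjusted p under 0.05. Cdh11 is below 0 in every state and reaches -5.96 in smooth muscle cultures, Cdh13 is higher in proliferating and osteoblast cultures, and Cdh3 is at 1.87 in chondrocyte and -3.14 in smooth muscle cultures.

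Cdh6, a type II cadherin of kidney and early neural crest, was found almost only in chondrocyte and osteoblast cultures. Its counts in normoxic chondrocyte libraries were 355, 259, 265 and 243, or 10.96, 10.5, 9.42 and 8.84 CPM. In normoxic osteoblast libraries they were 23, 30, 30 and 40, or 0.803, 1.18, 1.02 and 1.28 CPM. In the 4 normoxic proliferating libraries they were 0, which allows up to 0.0177 CPM (3 counts over the group). In normoxic smooth muscle libraries 2 counts were found in all, in 1 library.

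Under hypoxia the chondrocyte libraries had 157, 134 and 189 counts of Cdh6 (5.06, 5.27 and 6.21 CPM) and the osteoblast libraries 19, 27 and 14 (0.735, 0.928 and 0.493 CPM). Proliferating libraries had 1 count in all, in replicate 1, and smooth muscle libraries 0, which allows up to 0.0878 CPM. Against normoxic proliferating cells Cdh6 was at least 564-fold higher in chondrocyte cultures (edgeR adjusted p = 5.188e-09) and at least 60.8-fold higher in osteoblast cultures (edgeR adjusted p = 2.056e-05), both taken against 3 counts over the group. Against hypoxic proliferating cells the ratio was 485 in chondrocyte cultures (95% exact counting interval 86.7 to 19200) and 63.2 in osteoblast cultures (10.9 to 2538), with edgeR adjusted p = 3.961e-09 and 3.463e-05. Such intervals cover counting error only. A rule of 10 counts in every library leaves Cdh6 and Cdh10 untested in these comparisons, and 3 members are then called in the chondrocyte cultures at each oxygen level.

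Hypoxic chondrocyte cultures had 1.81-fold less Cdh6 than normoxic ones, with no overlap (log2 change -0.85 ± 0.14 SE, edgeR adjusted p = 0.00156). In osteoblast cultures the log2 change was -0.57 ± 0.34 SE (edgeR adjusted p = 0.1804). Its interaction terms were not called (-2.86 ± 1.35 SE in chondrocyte, edgeR adjusted p = 0.147; -2.55 ± 1.41 SE in osteoblast cultures, edgeR adjusted p = 0.152), and they rest on proliferating groups with 0 and 1 counts. Most like Cdh6 were Acvr1, a type I receptor for BMPs, and Tmem154 (both r = 0.979).

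Cdh10, another type II cadherin, known mainly from the brain, marked the chondrocyte cultures more narrowly. Its counts were 120, 89, 89 and 86 in normoxic chondrocyte libraries (3.70, 3.598, 3.16 and 3.13 CPM) and 99, 116 and 163 in hypoxic ones (3.19, 4.57 and 5.36 CPM). The ranges of both oxygen levels overlapped (log2 change 0.35 ± 0.21 SE, edgeR adjusted p = 0.259). Normoxic proliferating libraries had 8 counts in all and hypoxic ones 3. Normoxic osteoblast libraries had 0, 2, 4 and 12 counts, with the 12 in replicate 4, and hypoxic osteoblast libraries 14, 7 and 3. Normoxic smooth muscle libraries had 24 counts in all and hypoxic ones 0.

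From proliferating to chondrocyte cultures Cdh10 rose 72.4-fold in counts scaled for depth under normoxia (95% exact counting interval 36.4 to 169, log2 change 6.12 ± 0.33 SE, edgeR adjusted p = 6.602e-09). Under hypoxia it rose 127-fold (43.3 to 620.3, log2 change 6.82 ± 0.51 SE, edgeR adjusted p = 5.889e-08), or by 7.67 on the log2 scale without hypoxic proliferating replicate 3. The interaction was 0.76 ± 0.85 SE (edgeR adjusted p = 0.548). Per length Cdh10 and Cdh6 stayed small beside the main members: in normoxic chondrocyte cultures they gave 0.378% and 1.23% of the summed level, and in hypoxic ones 0.641% and 0.897%. Cdh6 and Cdh10 had r = 0.930 over the 28 libraries and 0.924 without hypoxic smooth muscle. Most like Cdh10 were C1qtnf3, a secreted C1q and TNF related protein (r = 0.978), and Srpx2 (r = 0.977). Against Cdh13, both genes had negative r, at -0.609 for Cdh6 and -0.709 for Cdh10.

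Cdh1, or E-cadherin, the defining cadherin of epithelia, was near 0 throughout, with 182 counts in all 28 libraries. Its counts in normoxic smooth muscle libraries were 31, 31, 30 and 16 (0.949, 0.832, 0.870 and 0.467 CPM), which was its highest level. Normoxic chondrocyte libraries had 15, 7, 7 and 8 counts and normoxic proliferating libraries 4, 0, 3 and 1. Hypoxic proliferating libraries had 8, 1 and 9 counts, hypoxic smooth muscle libraries 0, 0 and 3, and hypoxic chondrocyte libraries 0 in all 3, which allows up to 0.0345 CPM. Normoxic and hypoxic osteoblast libraries had 4 counts each in all. The smooth muscle libraries at normoxia lay above all others, with replicate 4 only just above the highest chondrocyte library.

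Cdh1 rose in normoxic smooth muscle cultures (log2 change 3.94 ± 0.61 SE, edgeR adjusted p = 2.233e-05), with 108 counts against 8, a ratio of 16.5 for depth (95% exact counting interval 8.10 to 39.3). It passed the filter on low counts only through that group, where it is high, so its tests in comparisons with that group are given as a description. Without normoxic proliferating replicate 2, a library with 0 counts, the log2 change was 3.21 (edgeR adjusted p = 6.320e-05). It was lower in hypoxic than in normoxic smooth muscle cultures (-3.01 ± 0.92 SE, edgeR adjusted p = 0.00803), and the interaction was -4.92 ± 1.39 SE (edgeR adjusted p = 0.00335). These values become -4.30 with library size alone (edgeR adjusted p = 2.91e-04) and -6.19 (edgeR adjusted p = 3.198e-04). Without hypoxic smooth muscle replicate 3, which held all 3 counts of that group, these values were -7.40 (edgeR adjusted p = 0.00172) and -9.60 (edgeR adjusted p = 0.00108). Hypoxic chondrocyte cultures had at least 9.50-fold less Cdh1 than normoxic ones, against 3 counts over the group. The gene failed the filter there, and without the filter on low counts it was called lower in the chondrocyte interaction (edgeR adjusted p = 4.381e-04). Normoxic chondrocyte cultures had 37 counts against 8 in normoxic proliferating cells, a ratio of 6.97 for depth (95% exact counting interval 3.195 to 17.3). Cdh1 failed the filter in that comparison too. Even at its highest Cdh1 gave 0.137% ± 0.0435 (SD, n = 4) of the summed level per length. The genes most like it were Stra6, a receptor for retinol uptake (r = 0.853), and Rassf9 (r = 0.835).

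The summed level of epithelial markers did not follow Cdh1. Of 21 epithelial genes, 6 were at 0 in every library, among them Cldn4, Ocln, Esrp1, Ovol2 and Crb3, and Epcam averaged at most 0.413 CPM in any group. The summed list was 3.03 to 3.94 CPM in normoxic smooth muscle libraries, where Cdh1 was highest, and 288 to 298 CPM in hypoxic proliferating libraries. Krt19 alone made up 288 CPM of the latter. In normoxic smooth muscle cultures 1 epithelial gene was called higher and 1 lower of 4 tested (40.8% and 38.9% of all genes). Krt7 was called higher in normoxic smooth muscle and chondrocyte cultures and lower in hypoxic than in normoxic smooth muscle cultures. It was also called higher in osteoblast cultures at both oxygen levels, where Cdh1 was near 0. In each of these comparisons Krt7 passed the filter only through the higher group. Endothelial Cdh5 averaged at most 0.1498 CPM in any group. Cdh4, known from retina and brain, had 2 counts in all, both in hypoxic osteoblast replicate 1, and was not tested.

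Over the comparisons between oxygen levels, 3 of the 4 members tested in proliferating cells were called, against 65.4% of all genes, with 2 higher (33.1%) and 1 lower (32.3%). In chondrocyte cultures 3 of 6 were called, against 22.2% of all genes, with 1 higher (10.4%) and 2 lower (11.8%). In osteoblast cultures 3 of 5 were called, against 54.3% of all genes, with 1 higher (27%) and 2 lower (27.3%). In smooth muscle cultures 4 of 5 were called, against 75.6% of all genes, with 0 higher (35.4%) and 4 lower (40.2%), and with library size alone 5 of 5 were lower. Cdh11 was among the members called lower in all 4 states. The chondrocyte interaction called 4 of 6 members, against 43.5% of all genes, with 1 higher (21.6%) and 3 lower (21.9%). The osteoblast interaction called 2 of 5, against 54.2%, with 0 higher (28.9%) and 2 lower (25.3%). The smooth muscle interaction called 5 of 5, against 70.4%, with 0 higher (34.9%) and 5 lower (35.5%). In this interaction and in hypoxic against normoxic smooth muscle cultures, Cdh1 passed the filter on low counts only through the normoxic smooth muscle group. The other 4 members, tested in every comparison, were all called lower in the interaction. All 5 were again called lower with library size alone, at -3.67 for Cdh2, -4.49 for Cdh3, -6.84 for Cdh11, -2.04 for Cdh13 and -6.19 for Cdh1, beside an all-gene median of -1.37. The comparisons share control groups, so these counts are not independent of one another.

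In the authors' deposited tables of the same pairwise comparisons, 51 of 51 member values had the sign found here, including all 38 that were called. The median difference in log2 fold change between the authors' deposited tables and the present fit was 0.018, and the largest, for Cdh6 in normoxic chondrocyte cultures with a control group at 0, was 1.40.

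Of the other cadherins, a list of 15, 3 to 5 were tested in each pairwise comparison. As with the members, some listed genes passed the filter on low counts through 1 of the 2 groups only, which fixes their direction. These were 3 of 4 in normoxic chondrocyte and in normoxic osteoblast cultures, and 3 of 5 in each of their hypoxic counterparts. They were 2 of 4 in normoxic and 1 of 4 in hypoxic smooth muscle cultures. Of all genes, 14.4% to 17.2% did so in these comparisons. Between oxygen levels in chondrocyte cultures they were 3 of 5, against 9.38% of all genes. Cdh24, a type II cadherin, averaged 8.12 ± 1.22 CPM in normoxic proliferating and 27.4 ± 2.33 CPM in normoxic chondrocyte cultures (SD, n = 4; log2 change 1.83 ± 0.11 SE, edgeR adjusted p = 2.335e-08). Under hypoxia it averaged 2.78 ± 0.567 and 53.2 ± 10.2 CPM in the same states (SD, n = 3; 4.25 ± 0.19 SE, edgeR adjusted p = 9.355e-09), and it was higher in hypoxic than in normoxic chondrocyte cultures (0.95 ± 0.13 SE, edgeR adjusted p = 4.975e-04). Cdh18, another type II cadherin, was called higher in all 3 normoxic lineages. On the log2 scale it rose by 6.24 in chondrocyte, 8.17 in osteoblast and 4.56 in smooth muscle cultures. Under hypoxia it rose by 4.99 in chondrocyte and 5.14 in osteoblast cultures. In each of these comparisons Cdh18 passed the filter only through the differentiated group, so its calls are given as a description. Cdh26 was called lower in normoxic osteoblast and smooth muscle cultures, by -5.92 and -3.95. It was also called lower in 3 groups with 0 to 2 counts, where no exact change is given. In those and in normoxic osteoblast cultures Cdh26 passed the filter only through proliferating cells. Its 2 counts in normoxic chondrocyte against 2703 in normoxic proliferating cultures are a ratio of 897 for depth (95% exact counting interval 248 to 7407). In hypoxic chondrocyte cultures it was at least 200.2-fold lower than in hypoxic proliferating cells, against 3 counts over the group. Cdh15 (M-cadherin, of muscle precursors) had 182 counts in normoxic chondrocyte cultures and 0 in normoxic proliferating and hypoxic chondrocyte cultures. It was at least 91.5-fold higher in normoxic chondrocyte than in normoxic proliferating cultures (edgeR adjusted p = 4.306e-06) and at least 46.8-fold lower in hypoxic than in normoxic ones (edgeR adjusted p = 1.758e-04), both against 3 counts over the group. In both comparisons Cdh15 passed the filter only through normoxic chondrocyte cultures, so these tests are given as a description. The summed skeletal muscle list, which includes Cdh15, was 1.05 to 2.38 CPM in those normoxic libraries, and Myod1, Myog and Myf5 were at 0 in every library. In hypoxic smooth muscle against hypoxic proliferating cells Cdh17, of gut epithelium, fell most (-4.97), and Cdh24 was called higher (1.35), but not with library size alone (0.07, edgeR adjusted p = 0.799). Cdh17 passed the filter there only through hypoxic proliferating cells, which fixes its direction.

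Catenins and other partners that bind cadherin tails or hold junctions are a list of 20 genes. Of these, 8 rose and 5 fell among 16 tested in normoxic chondrocyte cultures (median log2 change 0.14, against a median of 0.00 for all genes, of which 37.7% rose and 37.2% fell), but with library size alone 7 rose and 7 fell (median -0.21). In normoxic osteoblast cultures 7 rose and 4 fell of 15 (median 0.13, all genes 0.07, with 40.9% higher and 37.8% lower), but with library size alone 7 rose and 7 fell (median -0.03). The normoxic smooth muscle cultures had 10 that rose and 3 that fell of 15 (median 0.47, all genes 0.03, with 40.8% higher and 38.9% lower). Hypoxic chondrocyte cultures had 7 that rose and 6 that fell of 16 (median 0.18, all genes -0.02, with 34.9% higher and 34.6% lower), against 5 and 7 with library size alone. Hypoxic osteoblast cultures had 8 and 7 of 17 (median -0.02, all genes 0.00, with 36.2% higher and 35.1% lower), against 7 and 9 with library size alone. Between oxygen levels, 7 were higher and 1 lower of 16 in hypoxic chondrocyte cultures (median 0.32, all genes -0.01, with 10.4% higher and 11.8% lower), and 6 and 1 with library size alone. In proliferating cells 7 were higher and 1 lower of 15 (33.1% and 32.3% of all genes). The osteoblast cultures had 6 higher and 1 lower of 17 (27.0% and 27.3% of all genes), but 4 and 4 with library size alone. Arvcf, a p120-catenin relative that binds cadherin tails, rose most in normoxic osteoblast and smooth muscle cultures, by 2.32 and 3.12, and Ctnnd2, another relative, rose most in chondrocyte cultures at both oxygen levels. Its log2 change was 4.35 under normoxia, and under hypoxia 325 counts against 3 gave a ratio of 109.5 for depth (95% exact counting interval 37.1 to 534). At both oxygen levels Ctnnd2 passed the filter on low counts only through chondrocyte cultures, which fixes its direction. It was 1 of 16 in each case, against 15% and 14.4% of all genes. In hypoxic smooth muscle cultures 2 rose and 12 fell of 15 (median -0.75, all genes -0.07, with 33.8% higher and 36.2% lower), with Tjp1 lowest (-1.64), and with library size alone 1 rose and 13 fell (median -2.03). Against normoxic smooth muscle cultures 2 rose and 9 fell of 16 (median -0.42, all genes -0.12, with 35.4% higher and 40.2% lower), with Arvcf lowest (-3.12 ± 0.13 SE, edgeR adjusted p = 1.743e-11), and with library size alone 0 rose and 14 fell.

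Proteases that mature or shed cadherins are a list of 16 genes. In normoxic chondrocyte cultures 13 rose and 1 fell of 14 tested (median log2 change 0.96; of all genes 37.7% rose and 37.2% fell, median 0.00). In normoxic osteoblast cultures 10 rose and 1 fell of 13 (median 0.97, all genes 0.07, with 40.9% higher and 37.8% lower), and in normoxic smooth muscle cultures 10 rose and 4 fell of 14 (median 0.64, all genes 0.03, with 40.8% higher and 38.9% lower). With library size alone the counts were 10 rose and 1 fell, 10 and 1, and 10 and 3, and the medians 0.62, 0.82 and 0.72. Through 1 group only, 3 of the 14 proteases passed the filter in normoxic chondrocyte cultures (Pcsk5 and Pcsk6 higher, Mmp3 lower), against 15% of all genes tested. These were Pcsk6 and Mmp3 in normoxic osteoblast cultures, and in normoxic smooth muscle cultures Pcsk6 and Mmp9, both higher, and in hypoxic chondrocyte and osteoblast cultures Pcsk6, higher, and Mmp3 and Mmp9, lower. Under hypoxia 11 rose and 2 fell of 14 in chondrocyte cultures (median 0.72, all genes -0.02, with 34.9% higher and 34.6% lower), and 10 and 3 with library size alone (median 0.40, all genes -0.35). The hypoxic osteoblast counts were also 11 and 2 of 14 (median 0.76, all genes 0.00, with 36.2% higher and 35.1% lower), and 10 and 2 with library size alone (median 0.53, all genes -0.23). The split was the other way in hypoxic smooth muscle against hypoxic proliferating cells, with 1 that rose and 9 that fell of 13 (median -1.25, all genes -0.07, with 33.8% higher and 36.2% lower), and 0 and 12 with library size alone (median -2.53, all genes -1.35).

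Pcsk6, a proprotein convertase, gave the highest change of the list in normoxic osteoblast (5.41) and smooth muscle cultures (4.26). In the osteoblast libraries it was at 9.71, 11.2, 12.3 and 41.8 CPM, the last in replicate 4, the library named above as standing apart. Without that library, an alternative chosen after seeing the data, its log2 change was 4.58 ± 0.24 SE (edgeR adjusted p = 9.057e-10), still the highest of the list. Mmp3, which can cleave E-cadherin, fell most in all 3 normoxic lineages, by -8.08 in osteoblast and -3.28 in smooth muscle cultures. In normoxic chondrocyte cultures it had 1 count against 7947 in proliferating cells, a ratio of 5272 for depth (95% exact counting interval 946 to 208300). In hypoxic smooth muscle against normoxic smooth muscle cultures 1 protease gene rose and 12 fell of 14 (median log2 change -1.38, all genes -0.12, with 35.4% higher and 40.2% lower, and -2.75 with library size alone, all genes -1.49). Pcsk6 was lowest there, with 0 counts against 1180, at least 96.9-fold lower against 3 counts over the group (edgeR adjusted p = 6.418e-09). In that comparison 2 of the 14 proteases, Pcsk6 and Mmp9, passed the filter only through normoxic smooth muscle cultures, which fixes their direction. Of all genes, 21.2% passed through 1 group only.

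Of the 10 repressors known to act on the E-cadherin promoter, 9 were tested. In normoxic cultures 6 rose and 3 fell in chondrocyte (2 and 3 with library size alone), 3 and 4 in osteoblast and 5 and 2 in smooth muscle cultures, beside the all-gene shares given for the proteases. Under hypoxia 4 rose and 2 fell in chondrocyte (2 and 5 with library size alone) and 6 and 3 in osteoblast cultures. Hypoxic smooth muscle cultures had 1 that rose and 5 that fell against hypoxic proliferating cells (median -0.58, all genes -0.07), and 3 and 5 against normoxic smooth muscle cultures (median -0.57, all genes -0.12). Library size alone made both of these 1 and 8. Snai1 rose most in normoxic chondrocyte (2.76) and osteoblast cultures (2.10), and Snai2 in normoxic smooth muscle cultures (1.27). Twist2 fell most in all 3 (-3.86, -2.43 and -1.48). Twist1, a regulator of neural crest mesenchyme, went against most of the list in hypoxic smooth muscle cultures and rose, whether against hypoxic proliferating (2.70 ± 0.09 SE, edgeR adjusted p = 4.695e-10) or normoxic smooth muscle cultures (2.36 ± 0.10 SE, edgeR adjusted p = 1.309e-11), and these values were 1.42 and 0.99 with library size alone. Desmosome genes are a list of 8 with 4 or 5 tested. In normoxic chondrocyte cultures 4 of 5 rose (median 4.44, all genes 0.00, with 37.7% higher and 37.2% lower), among them Pkp1, a plakophilin (5.52), and Perp, a desmosomal membrane protein (5.06). Of these 5, 2 passed the filter on low counts through 1 group only (Dsp higher, Pkp3 lower), against 15% of all genes. That fixes their direction. Pkp3 fell in normoxic chondrocyte cultures, with 1 count against 1905 (ratio for depth 1264, 95% exact counting interval 227 to 49940). It also fell in normoxic osteoblast cultures (-6.47), where it again passed the filter only through proliferating cells. There 1 desmosome gene rose and 1 fell of 4 (40.9% and 37.8% of all genes). Without normoxic osteoblast replicate 4, chosen after seeing the data, 1 rose and 2 fell of 4. The smooth muscle cultures at normoxia had 1 that rose and 3 that fell of 4 (40.8% and 38.9% of all genes). Pkp1, lower there, passed the filter only through proliferating cells, which fixes its direction. Perp rose most in normoxic and hypoxic osteoblast cultures (4.54 and 5.47).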

How the data were processed

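The values analysed were read counts per gene, which the authors deposited as 1 table of raw counts. Per the submitters' processing notes, reads were handled with HISAT2 2.0.5, StringTie 1.3.3b and featureCounts 1.5.0-p3 on mm10. The annotation release and the strand setting of the counter are not given in the sources used here, so reads from overlapping antisense genes may be included. The authors' deposited comparison tables gave log2 fold changes and p-values, used only for the stated comparison of signs, and their 70 columns of values per library were not used. No pair of libraries within a group agreed within sampling noise (chi-square per gene 2.89 or more), so none was merged as a duplicate deposit, which does not show that they were separate cultures.

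Comparisons used only the libraries of the groups compared, in edgeR 4.0.16 (R 4.3.3), after filterByExpr (a minimum count of 10 and a minimum total of 15) and TMM scaling, with library sizes over all counts. The quasi-likelihood test was used with Benjamini-Hochberg adjustment over all genes tested. Interactions were fitted to 4 groups. Alternatives were other scalings and filters, DESeq2 1.42.0, limma-voom 3.58.1, a replicate block over replicates 1 to 3, 1 fit of all libraries and leaving out single libraries. The code was tested on simulated counts. Gene coordinates and exon lengths are from GENCODE M21 and promoters from RefSeq (GRCm38.p6). The genes with a pattern most like that of each member were the 2 named genes with the highest Pearson r of log2(CPM + 0.5), except that 1 of them is not reported here. Members, gene lists, and the other genes named (the largest called rise and fall in a list) were chosen with earlier results of these data known.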

Additional observations from a re-analysis of the deposited data

Results flagged for a closer look

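In 3 of 23 combinations of a member and a normoxic group, 1 library lay far from the other 3. Chance alone gives about 1 in 20 for a single combination, but these share the same 16 libraries and are not independent. Each of the 3 was replicate 4 of its group. Cdh2 was lowest in normoxic proliferating replicate 4, at 198 CPM against 229 to 231 CPM in the others. Cdh11 was highest in normoxic chondrocyte replicate 4, at 447 CPM against 393 to 400.5 CPM. Cdh13 was lowest in normoxic osteoblast replicate 4, at 147 CPM against 189 to 197 CPM, in the library that also held more Col2a1, Sp7 and Krt19 than its group. The gap divided by the range of the group was 0.941, 0.863 and 0.842, beyond Dixon's 95% critical value for 4 samples.

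The change from proliferating cells differed between oxygen levels, by the interaction term of the edgeR quasi-likelihood test, for 11 combinations of member and lineage. In chondrocyte cultures the interaction (hypoxic minus normoxic change, log2) was -0.31 for Cdh2, 1.82 for Cdh3, -0.54 for Cdh11 and -0.81 for Cdh13. In osteoblast cultures it was -0.96 for Cdh2 and -1.19 for Cdh11. In smooth muscle cultures it was -4.92 for Cdh1, -2.33 for Cdh2, -3.16 for Cdh3, -5.51 for Cdh11 and -0.70 for Cdh13. Cdh1 passed the filter on low counts only through normoxic smooth muscle cultures, so its value is a description. It reached -9.60 when single libraries were left out. The smooth muscle values rest on the hypoxic libraries with a high share of mitochondrial ribosomal RNA, and the part of that share in them was not tested.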

How the results depend on the processing

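Of 67 changes and interactions of members, 52 kept their direction and their side of the threshold under every alternative run. Of 1225 alternative values, 1185 kept both, 10 gained and 7 lost a call and 23 turned direction. The last group is given here as log2 changes. With library size alone, and with mitochondrial and short noncoding genes also left out, Cdh2 in hypoxic chondrocyte cultures came to -0.2014 and -0.2045, Cdh13 in hypoxic smooth muscle against hypoxic proliferating to -0.3715 and -0.1647, Cdh3 in hypoxic against normoxic proliferating to -0.0134 and -0.0101, and Cdh13 in the osteoblast interaction to -0.0584 and -0.0704. With all 28 libraries in 1 fit Cdh2 in normoxic smooth muscle cultures came to -0.0329. The fit with the replicate number as a block used replicates 1 to 3 only, so it also left out the normoxic libraries numbered 4. In that fit Cdh2 in normoxic smooth muscle cultures was at -0.0564, Cdh3 in hypoxic against normoxic proliferating at -0.0162 and Cdh13 in the osteoblast interaction at -0.0248. With the normoxic libraries numbered 4 left out and no block, chosen after seeing the data, the same 3 values were -0.0559, -0.019 and -0.0246. Same-numbered libraries did not deviate together (r -0.125 to 0.108, with 0 of 10 comparisons above 0.1 in every pair), so the numbers do not pair them, and the block changed no call of a member.

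When single libraries were left out, 6 values crossed 0. Cdh3 ranged from -0.2269 to 0.0082 in normoxic chondrocyte cultures (highest without its replicate 4), from -0.2006 to 0.0338 in normoxic osteoblast cultures (highest without its replicate 4) and from -0.019 to 0.1177 in hypoxic against normoxic proliferating cells (lowest without normoxic replicate 4). Cdh2 ranged from -0.042 to 0.0455 in normoxic smooth muscle cultures (-0.042 and -0.0088 without replicate 4 of either group) and from -0.0843 to 0.0237 in hypoxic against normoxic chondrocyte cultures (0.0121 and 0.0237 without normoxic replicate 3 or hypoxic replicate 2). Cdh13 in the osteoblast interaction ranged from -0.0194 (without normoxic osteoblast replicate 4) to 0.1063. None of these was called.

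The number of members called moved by more than 1.5 times under 2 stricter rules, by construction, since fewer genes can pass. With a log2 change of at least 1 also required it became 3 in normoxic chondrocyte cultures, 0 between oxygen levels in proliferating cells, and 1 each in chondrocyte and osteoblast cultures between oxygen levels and in the chondrocyte and osteoblast interactions. With 10 counts in every library it became 3 in normoxic and 3 in hypoxic chondrocyte cultures.

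Depth limits Cdh1, Cdh4, Cdh6 and Cdh10, whose groups near 0 allow bounds or wide counting intervals. The likenesses without hypoxic smooth muscle libraries were computed after seeing the data.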
